A study of Mus musculus with 12 samples.

Results

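The 10 genes described here mark pericentral hepatocytes, the liver cells around the central vein, or belong to the Wnt signal that sets their programme: Glul, Axin2, Lgr5, Tbx3, Rhbg, Oat, Lect2, Wnt2, Rspo3 and Wif1. They were listed by name, and each was found on the array through the RefSeq identifier of its probe. All 10 were among the 13898 genes tested, and 9 of them, all but Wif1, were well above background on all 12 arrays. The livers came from male C57BL/6NJcl mice that ate either CDAHFD, a high-fat diet without choline whose protein is replaced by L-amino acids and which is used to induce steatohepatitis, or the chow CE-2 as control. CDAHFD held 60 kcal% fat and 0.1% methionine, so the diets differed in more than choline, and the chow was no matched formula. Livers were taken after 1, 2 or 6 weeks of feeding, at 7, 8 and 12 weeks of age, which gave 6 groups of 2 one-colour Agilent arrays. Nothing says that the 2 arrays of a group came from separate mice, so p-values measure the spread between these arrays.

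Wnt ligands and R-spondins released by endothelial cells of the central vein bind Frizzled, LRP and LGR receptors on neighbouring hepatocytes and stabilise beta-catenin, which switches on target genes with TCF and LEF factors. In the liver this signal keeps the hepatocytes nearest the central vein making glutamine from ammonia and carrying out much of the drug metabolism, while hepatocytes near the portal vein make urea and glucose. Secreted inhibitors such as Wif1 and Frzb bind ligands and dampen the signal.

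Values are log2 processed intensities minus the 75th percentile of the same array, so a negative level lies below that percentile and levels of different genes cannot be set against each other. Probes well above background made up 40.4% to 44.4% of control arrays and 45.4% to 49.6% of CDAHFD arrays. Replicate 1 of the 1 week control had a dim corner where 312 spots read 8-fold or more under all other arrays. No spot of the 10 genes lay there, although the standard deviation between replicates was 0.85 in that group against 0.29 to 0.49 in the others. Weeks 1 and 2 were on slide 1 and week 6 on slide 2. The diets were compared within a slide, whereas 6 weeks against earlier weeks cannot be told apart from slide and age. All 7 hepatocyte markers tested gave signal, with a mean level of 4.24 to 4.94 on control arrays and 3.78 to 4.17 on CDAHFD arrays over the 6 read on all arrays.

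Within the 10 genes, some members were higher and some lower on CDAHFD. Differences are CDAHFD minus control, on the log2 scale, and are given relative to the median gene, which itself lay 0.13, 0.05 and 0.03 above 0 at 1, 2 and 6 weeks and 0.08 above 0 averaged over weeks. The printed levels hold no such shift. A gene was called at an adjusted p under 0.05 (limma, Benjamini-Hochberg over all genes tested). Each p belongs to the difference before the median gene was subtracted. Wif1 was among the genes tested only because its CDAHFD arrays were above background. This favours a higher reading on CDAHFD, so Wif1 is counted apart from the other 9. At 1 week 4 of these 9 were called, against 40.9% of all genes: Rspo3 rose, while Glul, Rhbg and Oat fell. At 2 weeks 2 of 9 were called, against 37.8%: Rhbg rose and Oat fell. At 6 weeks 5 of 9 were called, against 40.7%: Rhbg and Lect2 rose, and Axin2, Tbx3 and Oat fell. Averaged over the weeks 7 of 9 were called, against 61.3%, with 3 higher (Rhbg, Lect2 and Rspo3) and 4 lower (Axin2, Lgr5, Tbx3 and Oat). With Wif1 the counts were 5, 3, 5 and 8 of 10. Over all genes, 25.9%, 22.9% and 24.5% were called higher and 15.0%, 14.9% and 16.2% lower at 1, 2 and 6 weeks, and 35.6% and 25.7% on average. The median of the 9 differences was -0.55, -0.16 and -0.57 at the 3 weeks and -0.3 on average. Leaving out 1 array leaves 1 in its group, so only differences are given here, for members other than Wif1. Without replicate 1 of the 1 week control, Rspo3, the sole member of the 9 called higher at 1 week, was 0.28 there, against 0.48. Glul and Rhbg were -0.69 and -0.33, against -0.74 and -0.55. Axin2 and Tbx3 were -1.17 and -1.71, against -0.82 and -1.21. Averaged over weeks, Rspo3 was 0.09 and Lgr5 -0.51, against 0.16 and -0.63. Without replicate 1 of CDAHFD at 1 week, Glul, Rhbg and Rspo3 were -0.49, -0.59 and 0.47 at 1 week. At 6 weeks, Axin2, Tbx3 and Oat were -0.84, -1.44 and -0.83 without control replicate 1, against -0.87, -1.51 and -0.77. Calls lost without 1 array are given with these genes below. With each array centred on its median instead, Axin2 (adjusted p = 0.037) and Tbx3 (adjusted p = 0.0419) were also called at 1 week, Lgr5 at 2 weeks (adjusted p = 0.0329) and Glul on average (adjusted p = 0.0226), and Rspo3 on average was not (adjusted p = 0.325).

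**Figure D1:**
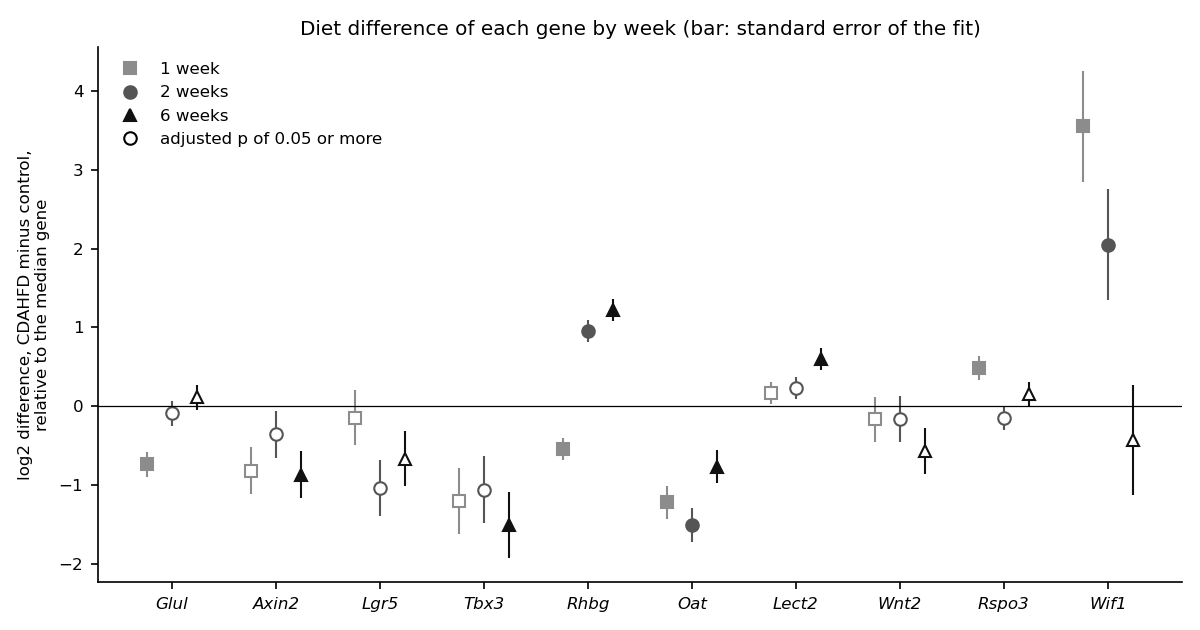
Log2 difference between CDAHFD and control relative to the median gene (y axis) for the 10 genes (x axis) at 1, 2 and 6 weeks, with the standard error of the fit; filled symbols have an adjusted p under 0.05. Oat lies below 0 at all 3 weeks, Rhbg moves from -0.55 at 1 week to 1.22 at 6 weeks, and the Wif1 points are fitted values of a gene below background in several groups, not bounds.

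Promoter letters could be read from RefSeq (build GRCm38.p6) for 6 of the 10 genes, as the 250 bases before the annotated start: Glul, Axin2, Oat, Lect2, Wnt2 and Wif1. A TCF and LEF core was searched as CTTTGAA and CTTTGAT on both strands, that is also as TTCAAAG and ATCAAAG. Lect2 had a match, ATCAAAG, 32 bases before the start, and the other 5 windows had none. Of all 32851 promoters listed, 2457 (7.5%) held one. The windows below belong to a called gene that rose (Lect2), a pathway target that fell (Axin2) and the gene that fell at every week (Oat), at chr13:56548539-56548788 on the minus strand, chr11:108920099-108920348 on the plus strand and chr7:132576399-132576648 on the minus strand. They are written 5′ to 3′ with the motif in capitals.
Lect2: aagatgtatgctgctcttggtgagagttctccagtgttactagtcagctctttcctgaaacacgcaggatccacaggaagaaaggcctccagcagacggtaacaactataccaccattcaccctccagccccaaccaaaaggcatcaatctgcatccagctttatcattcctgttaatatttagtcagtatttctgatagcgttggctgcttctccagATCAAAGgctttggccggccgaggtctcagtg
Axin2: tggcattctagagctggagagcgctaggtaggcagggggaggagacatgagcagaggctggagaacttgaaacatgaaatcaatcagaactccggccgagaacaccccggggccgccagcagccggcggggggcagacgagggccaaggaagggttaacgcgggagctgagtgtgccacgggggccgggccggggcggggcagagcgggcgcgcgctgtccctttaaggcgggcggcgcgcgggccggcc
Oat: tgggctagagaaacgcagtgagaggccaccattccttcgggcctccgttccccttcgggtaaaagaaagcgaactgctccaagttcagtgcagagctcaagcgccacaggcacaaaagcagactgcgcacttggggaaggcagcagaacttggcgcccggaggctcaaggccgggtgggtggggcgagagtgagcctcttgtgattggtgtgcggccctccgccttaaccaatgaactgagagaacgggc
A match is a run of letters and not a measured binding site, and no factor binding was measured in these livers.

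Of the ligands, Wnt2, made by endothelial cells of the liver, did not pass the test in any comparison under the main scaling. On control arrays it read -5.83 and -6.18 at 1 week, -5.31 and -6.07 at 2 weeks and -6.07 and -5.90 at 6 weeks. On CDAHFD arrays it read -6.04 and -6.03, -5.70 and -5.89, and -6.60 and -6.44. The diets overlapped at 1 and 2 weeks, and both CDAHFD arrays lay below both control arrays at 6 weeks. The difference was -0.17 ± 0.29 (SE, n = 2 per group; limma adjusted p = 0.928) at 1 week, -0.16 ± 0.29 (adjusted p = 0.806) at 2 weeks and -0.57 ± 0.29 (adjusted p = 0.165) at 6 weeks. With normexp, another background correction, it was called at 1 week (-0.55, adjusted p = 0.0474) and on average (-0.4, adjusted p = 0.00817), and with the percentile over all probes on average (-0.3, adjusted p = 0.0311).

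Rspo3, which holds Wnt receptors at the cell surface by engaging LGR receptors, rose at 1 week. Control arrays read -2.96 and -2.54 at 1 week, -2.25 and -2.19 at 2 weeks and -2.30 and -2.30 at 6 weeks. CDAHFD arrays read -2.09 and -2.17, -2.24 and -2.40, and -2.15 and -2.07. The 1 week control arrays were the lowest of the 12, and the diets overlapped at 2 weeks. The 1 week difference was 0.48 ± 0.15, 1.4-fold (limma adjusted p = 0.00738), and those at 2 and 6 weeks were -0.15 (adjusted p = 0.626) and 0.15 (adjusted p = 0.334). With the later control arrays in place of the 1 week ones the 1 week value was 0.06 (adjusted p = 0.471), and without control replicate 1 it was 0.28 (adjusted p = 0.0677). Without replicate 1 of CDAHFD it was 0.47 (adjusted p = 0.0571), and the average over weeks, 0.16 (adjusted p = 0.0331), was called in 12 of 24 alternative settings and lost without any 1 of 7 arrays: replicate 1 of both diets at 1 week and at 2 weeks, both control arrays of 6 weeks and CDAHFD replicate 2 of 6 weeks.

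These bulk livers hold all cell types, and a smaller share of a cell type and less RNA per cell cannot be told apart. Of 10 endothelial markers, 3 rose and 0 fell at 1 week, 2 rose and 0 fell at 2 weeks, and 2 rose and 5 fell at 6 weeks. Among all genes 25.9%, 22.9% and 24.5% rose and 15.0%, 14.9% and 16.2% fell at these weeks. Thbd, the thrombin receptor thrombomodulin, rose by 1.24 on average (limma adjusted p = 2.2e-06), whereas Tek, an angiopoietin receptor, fell by 0.78 (adjusted p = 0.00188). Their mean level spanned -2.61 to -2.24 on control and -2.65 to -2.03 on CDAHFD arrays. Without replicate 1 of the 1 week control 1 endothelial marker was called higher at 1 week. Their part in the Wnt2 and Rspo3 values was not tested.

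Wif1, a secreted protein that binds Wnt ligands, read higher on CDAHFD at 1 and 2 weeks. Control arrays read -8.60 and -9.17 at 1 week, -8.56 and -8.95 at 2 weeks and -8.99 and -6.62 at 6 weeks. CDAHFD arrays read -5.90 and -4.51, -6.57 and -6.75, and -8.21 and -8.20. The probe was well above background on both CDAHFD arrays at 1 and 2 weeks and on 1 control array at 6 weeks, and on no other array. It passed the background filter only through those CDAHFD arrays, so its levels are a description and its p-values support nothing. It was at least 2.67-fold higher on CDAHFD at 1 week. This bound sets the CDAHFD mean against the dimmest signal still well above background on the control arrays, with no shift for the median gene. The bound was 4.31-fold without CDAHFD replicate 1 and 1.65-fold without replicate 2. At 2 and 6 weeks the bound gives no fold. The fitted differences were 3.55 (limma adjusted p = 0.00228), 2.05 (adjusted p = 0.0378) and -0.43 (adjusted p = 0.688) at 1, 2 and 6 weeks. These p-values belong to the fitted differences and not to the bound. With normexp the fitted difference was 0.19 at 1 week (adjusted p = 0.987) and -0.05 at 2 weeks (adjusted p = 0.688).

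Lgr5, the R-spondin receptor and a Wnt target of pericentral hepatocytes, fell on average over the weeks. Control arrays read -2.46 and -3.14 at 1 week, -2.90 and -2.76 at 2 weeks and -2.26 and -2.75 at 6 weeks. CDAHFD arrays read -2.79 and -2.85, -3.80 and -3.85, and -3.74 and -2.54. Both CDAHFD arrays lay below control at 2 weeks, the diets overlapped at 1 and 6 weeks, and the CDAHFD arrays of 6 weeks stood well apart from each other. The average difference was -0.63 ± 0.2, 1.54-fold lower (limma adjusted p = 0.0409), with -0.15 at 1 week (adjusted p = 0.971), -1.04 at 2 weeks (adjusted p = 0.0524) and -0.67 at 6 weeks (adjusted p = 0.184). The average was called in 13 of 24 alternative settings, and its adjusted p was 0.0528 to 0.105 without any 1 of 9 arrays, that is all but control replicate 2 of 1 and 6 weeks and CDAHFD replicate 2 of 6 weeks. Without replicate 2 of CDAHFD at 6 weeks, the 6 week difference was -1.26 (adjusted p = 0.00657).

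Axin2, a scaffold of the complex that degrades beta-catenin and a feedback target of Wnt signalling, fell on average and at 6 weeks. Control arrays read -5.53 and -4.82 at 1 week, -5.66 and -5.43 at 2 weeks and -5.60 and -5.66 at 6 weeks. CDAHFD arrays read -5.83 and -5.89, -5.59 and -6.13, and -6.29 and -6.65. The CDAHFD arrays lay below control at 1 and 6 weeks and overlapped it at 2 weeks. The average difference was -0.69 ± 0.17, 1.61-fold lower (limma adjusted p = 0.00976), and it was called in 24 of 24 alternative settings. By week it was -0.82 ± 0.3 (adjusted p = 0.0871), -0.36 (adjusted p = 0.439) and -0.87 ± 0.3 (adjusted p = 0.044). The 6 week call held in 12 of 24 settings, and not with normexp (-0.38, limma adjusted p = 0.184). Its adjusted p was 0.122 to 0.191 without control replicate 1 or 2 or CDAHFD replicate 2 of that week, and 0.0512 to 0.0619 without a CDAHFD array of 1 week or a control array of 2 weeks. A second Axin2 probe, well above background on 3 of 12 arrays and not tested, also read lower on CDAHFD at 1 week (-7.51 and -7.09 against -6.57 and -6.61) and 6 weeks (-8.48 and -8.31 against -7.72 and -7.49).

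Tbx3, a transcription factor of pericentral hepatocytes and a beta-catenin target, read lower on every CDAHFD array than on every control array. Control arrays read 0.46 and 1.48 at 1 week, 0.39 and 1.22 at 2 weeks and 1.49 and 1.36 at 6 weeks. CDAHFD arrays read -0.16 and -0.06, 0.22 and -0.62, and 0.20 and -0.29. The highest CDAHFD array, at 0.22, stayed under the lowest control array, at 0.39. What share of all genes separates by diet is not given, here or for any other gene, so such separation is a description. The average difference was -1.26 ± 0.24, 2.4-fold lower (limma adjusted p = 0.00313; called in 24 of 24 settings), with -1.21 ± 0.42 (adjusted p = 0.0741), -1.06 (adjusted p = 0.0968) and -1.51 (adjusted p = 0.024) at 1, 2 and 6 weeks. The 6 week call was lost without any 1 of its 4 arrays (adjusted p = 0.0551 to 0.148). At 1 week the value without control replicate 1 was -1.71 (adjusted p = 0.0146).

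**Figure D2:**
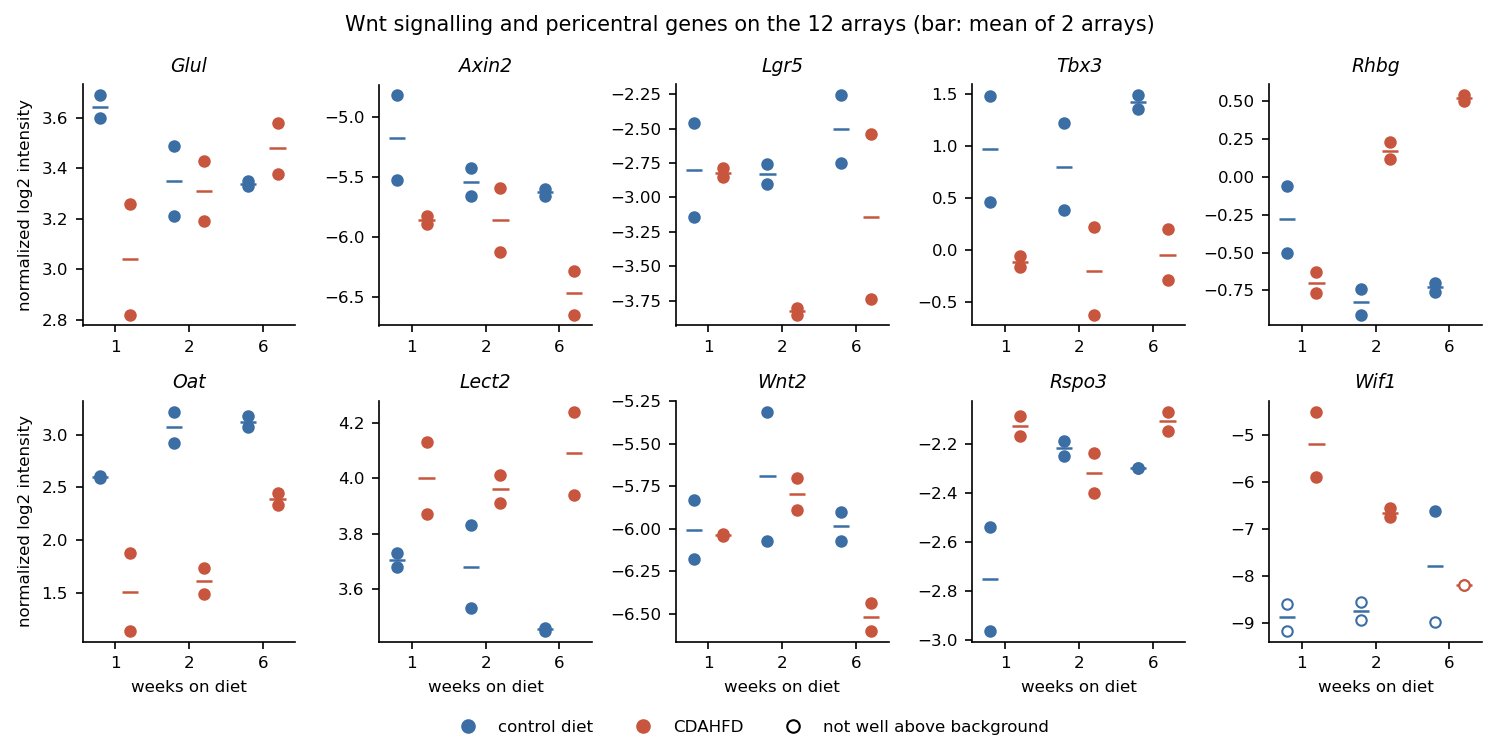
Normalized log2 intensity (y axis, its own range in each panel) of the 10 genes after 1, 2 and 6 weeks (x axis); each point is 1 of the 12 arrays, bars are the mean of 2 arrays, and open points were not well above background. All CDAHFD arrays lie below all control arrays for Tbx3 and Oat and above them for Lect2. The share of all genes that separate in this way is not given.

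Among the genes of ammonia and amino acid handling, Glul, glutamine synthetase, fell at 1 week and passed no test later. Control arrays read 3.69 and 3.60 at 1 week, 3.49 and 3.21 at 2 weeks and 3.35 and 3.33 at 6 weeks. CDAHFD arrays read 2.82 and 3.26, 3.43 and 3.19, and 3.38 and 3.58. The CDAHFD arrays lay below control at 1 week, overlapped at 2 weeks and lay above it at 6 weeks. The differences were -0.74 ± 0.16, 1.67-fold lower (limma adjusted p = 0.0125), then -0.09 (adjusted p = 0.87) and 0.11 (adjusted p = 0.515). A change between weeks was not called (adjusted p = 0.158). The 1 week value was -0.24 with quantile normalization (adjusted p = 0.363), -0.69 without control replicate 1 (adjusted p = 0.0646), -0.49 without CDAHFD replicate 1 (adjusted p = 0.126) and -0.37 against the later control arrays (adjusted p = 0.0991).

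Rhbg, an ammonium transporter of pericentral hepatocytes, fell at 1 week and rose at 2 and 6 weeks. Control arrays read -0.06 and -0.50 at 1 week, -0.91 and -0.74 at 2 weeks and -0.70 and -0.76 at 6 weeks. CDAHFD arrays read -0.63 and -0.77, 0.12 and 0.23, and 0.50 and 0.54. The diets did not overlap at any week, with CDAHFD below control at 1 week and above it later. The differences were -0.55 ± 0.14, 1.47-fold lower (limma adjusted p = 0.0369), then 0.95 ± 0.14, 1.94-fold higher (adjusted p = 3.4e-04), and 1.22 ± 0.14, 2.32-fold higher (adjusted p = 6.7e-05). Rhbg was the 1 member of 10 whose diet difference changed between weeks (adjusted p = 0.00931), against 2.39% of all genes.

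Within CDAHFD, Rhbg was also the 1 of 10 genes called between weeks, against 3.09% of all genes: its level was 0.88 higher at 2 weeks and 1.22 higher at 6 weeks than at 1 week (limma adjusted p = 0.00691). Within the control diet 0 of 10 genes were called between weeks by limma, against 11.5% of all genes, and 2 of the 10 had an unadjusted p under 0.05. Rhbg was -0.55 and -0.45 there (adjusted p = 0.0554). The later rise was called in all 24 alternative settings at 2 weeks and at 6 weeks. The 1 week fall was called in 15 of 25: it was 0.01 against the later control arrays (adjusted p = 0.675) and -0.33 without control replicate 1 (adjusted p = 0.299). Its adjusted p was 0.0818 and 0.166 without replicates 1 and 2 of CDAHFD at 1 week and 0.0523 to 0.0527 without 1 of 4 arrays of other weeks (either CDAHFD array of 2 weeks or control array of 6 weeks). Without replicate 2 of CDAHFD at 1 week the change of the diet difference had an adjusted p of 0.0623 and the change within CDAHFD one of 0.0937.

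Oat, ornithine aminotransferase, which feeds ornithine carbon into glutamate, fell at each week. Control arrays read 2.61 and 2.59 at 1 week, 2.92 and 3.22 at 2 weeks and 3.07 and 3.18 at 6 weeks. CDAHFD arrays read 1.88 and 1.14, 1.73 and 1.49, and 2.33 and 2.45. Every CDAHFD array lay below every control array, with 2.45 as the highest of the former and 2.59 as the lowest of the latter. The differences were -1.22 ± 0.21, 2.33-fold lower (limma adjusted p = 0.00226), -1.51 ± 0.21, 2.86-fold lower (adjusted p = 3.7e-04), and -0.77 ± 0.21, 1.71-fold lower (adjusted p = 0.0167). A change between weeks was not called (adjusted p = 0.337). The 6 week call was lost without control replicate 1 (adjusted p = 0.0543), control replicate 2 (adjusted p = 0.088) or CDAHFD replicate 1 (adjusted p = 0.0718), and with quantile normalization (-0.55, adjusted p = 0.0731).

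Lect2, a chemotactic protein that hepatocytes secrete and a beta-catenin target, rose at 6 weeks and on average. Control arrays read 3.68 and 3.73 at 1 week, 3.83 and 3.53 at 2 weeks and 3.46 and 3.45 at 6 weeks. CDAHFD arrays read 3.87 and 4.13, 4.01 and 3.91, and 3.94 and 4.24. All 6 CDAHFD arrays, from 3.87 upward, lay above all 6 control arrays, which reached 3.83. The difference was 0.6 ± 0.14, 1.52-fold higher, at 6 weeks (limma adjusted p = 0.00483) and 0.33 ± 0.08 on average (adjusted p = 0.00147). At 1 and 2 weeks it was 0.17 (adjusted p = 0.117) and 0.23 (adjusted p = 0.143). With quantile normalization it was 0.69 (adjusted p = 0.00286) and 0.67 (adjusted p = 0.00428), and against the later control arrays 0.37 at 1 week (adjusted p = 0.0241). With the percentile taken over all probes the adjusted p was 0.0571 at 6 weeks and 0.139 on average.

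Other genes of pericentral hepatocytes were mostly lower on CDAHFD. Of 16 tested of 18 listed, 1 rose and 10 fell on average, against 35.6% and 25.7% of all genes. Their median was -0.55, against a median of 0 over all genes, and -0.68 with the dim blocks masked. Slco1b2, read by a probe in the dim corner, was 1.34 ± 2.06 on average. Rgn, a calcium-binding protein also called regucalcin, read 5.17 and 5.28 on the 1 week control arrays and 4.4 and 4.5 on CDAHFD, and by 6 weeks 5.56 and 5.49 against 4.56 and 4.68. No CDAHFD array of Rgn reached a control array in those weeks, and the gene fell by 1.02 ± 0.06 on average (limma adjusted p = 5.6e-07). The cytochromes Cyp2c50 and Cyp2c37 fell by 1.53 (adjusted p = 3.7e-06) and 1.49 (adjusted p = 1.7e-05). Slc1a2, a glutamate transporter, fell by 0.68 (adjusted p = 1.5e-04). Cyp2e1, which oxidises ethanol, fell by 0.71 (adjusted p = 1.3e-04) but was -0.05 with quantile normalization (adjusted p = 0.664). Cyp1a2 fell by 0.43 (adjusted p = 0.0123), a call lost with quantile normalization (adjusted p = 0.0527). By week Cyp1a2 was -0.07 (limma adjusted p = 0.791), -0.23 (adjusted p = 0.449) and -0.96 (adjusted p = 0.00189), so it was called at 6 weeks only.

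Genes of the opposite, periportal zone were lower too. Of 18 tested, 4 rose and 11 fell on average, against 35.6% and 25.7% of all genes. The median was -0.78, and -0.77 with the dim blocks masked. Gls2, the liver glutaminase, fell by 1.41 ± 0.07 (limma adjusted p = 1.6e-07), and Otc, a urea cycle enzyme, by 0.99 ± 0.05 (adjusted p = 2.3e-07). Cyp2f2 fell by 1.15 (adjusted p = 3.4e-06) and Hal, which degrades histidine, by 1.58 (adjusted p = 1.2e-05). Sds, a serine-degrading enzyme read by a probe in the dim corner, was 1.21 ± 1.7 (adjusted p = 0.545) and -0.5 with the dim blocks masked. The 7 hepatocyte markers also all fell on average, with a median of -0.68. At 1, 2 and 6 weeks, 6, 4 and 2 of them were called lower, against 15.0%, 14.9% and 16.2% of all genes. The medians of these markers were -1, -0.59 and -0.38 at those weeks. Their part in the pericentral values was not tested. Whether the zones differed was not tested either.

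**Figure D3:**
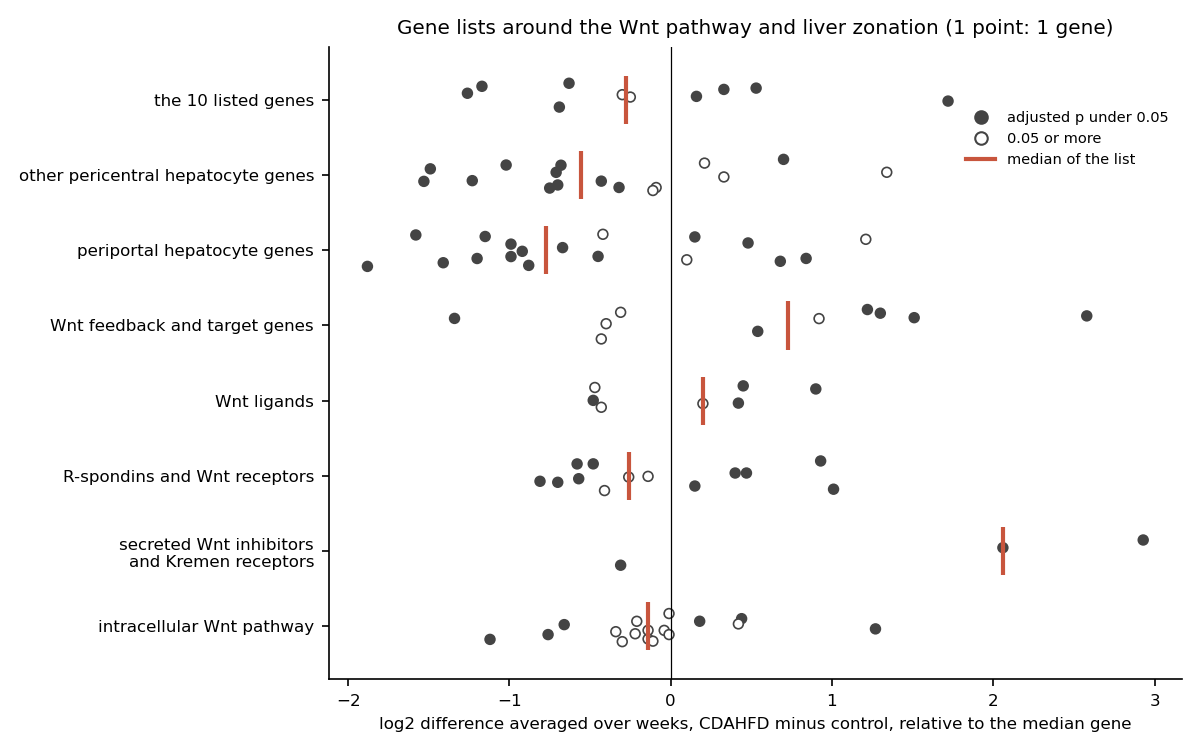
Log2 difference averaged over weeks relative to the median gene (x axis), 1 point per gene, for the 10 genes and 7 lists (y axis); filled points have an adjusted p under 0.05 and red lines are list medians. The pericentral and periportal medians lie at -0.55 and -0.78, and with the dim blocks masked they were -0.68 and -0.77. The median of the Wnt feedback and target genes lies at 0.73, and with the dim blocks masked it was 0.12. In the list of secreted inhibitors and Kremen receptors, Dkk3 and Frzb lie above 2 and Kremen1 below 0. Wif1, Tcf7, Lef1, Frzb, Fzd2 and Fzd9, not well above background on some or all control arrays, are fitted values.

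Of 10 tested of 11 Wnt feedback and target genes, 5 rose and 1 fell on average (median 0.73). The shares of all genes were 35.6% and 25.7%. Lef1 and Tcf7, both among the 5, passed the background filter only through CDAHFD, and without them 3 of 8 rose and 1 fell (median 0.12). These 8 include Notum, read by a probe in the dim corner. Notum was 3.65 ± 2.26 at 1 week, -0.61 at 2 weeks, -0.27 at 6 weeks and 0.92 ± 1.31 on average. With the dim blocks masked, the median of all 10 genes was 0.12. Sp5, a transcription factor induced by Wnt, read -2.15 and -1.80 on control at 1 week, -2.64 and -2.49 at 2 weeks and -1.87 and -1.87 at 6 weeks, against -3.19 and -3.51, -3.20 and -3.79, and -3.72 and -2.96 on CDAHFD. Its diets did not overlap, and it fell by 1.34 ± 0.15 (limma adjusted p = 4.8e-05; called in 24 of 24 settings). Ccnd1, cyclin D1 of the cell cycle, moved the other way by 2.58 ± 0.19 (adjusted p = 4.0e-06). Tcf7, a TCF factor that T cells also express, was well above background on 1 of 2 control arrays at each week. Its fitted difference of 1.22 (adjusted p = 1.4e-04) was 0.08 with normexp (adjusted p = 0.723). As Tcf7 passed the filter only through CDAHFD, these p-values support nothing. The feedback genes Nkd1 (-0.31, adjusted p = 0.0655), Znrf3 (-0.4, adjusted p = 0.125) and Rnf43 (-0.43, adjusted p = 0.19) did not pass under the main scaling. Nkd1 and Znrf3 passed with median centring (adjusted p = 0.00583 and 0.0388), the percentile over all probes (0.00112 and 0.0141), quantile normalization (0.00177 and 0.0202) and normexp (0.0103 and 0.00672), and Rnf43 with all probes (0.0337). Without 1 array each, CDAHFD replicate 2 of 6 weeks, control replicate 2 and CDAHFD replicate 1 of 2 weeks, they passed too (0.00906, 0.023 and 0.0443). Without replicate 1 of the 1 week control the list median was 0.11, with 5 genes higher and 2 lower.

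Of 7 Wnt ligands tested of 18, 3 rose and 1 fell on average, against 35.6% and 25.7% of all genes. The shares of all genes were 25.9% and 15.0% at 1 week. Wnt4 rose by 0.45 ± 0.09 (limma adjusted p = 6.3e-04), Wnt5b by 0.9 ± 0.28 (adjusted p = 0.0164) and Wnt5a by 0.42 ± 0.16 (adjusted p = 0.0195), while Wnt1 fell by 0.48 ± 0.14 (adjusted p = 0.0291). Wnt5a was called in 15 and Wnt1 in 16 of 24 alternative settings. At 1 week 1 ligand was called higher and 1 lower, and 0 without replicate 1 of the 1 week control.

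Of 13 R-spondins and receptors tested of 20, 5 rose and 5 fell on average, and 3 rose and 5 fell without replicate 1 of the 1 week control. Of the 5 that rose, Fzd2 and Fzd9 passed the background filter only through CDAHFD. Among all genes 35.6% rose and 25.7% fell on average, and 25.9% and 15.0% at 1 week. The co-receptors Lrp6 and Lrp5 fell by 0.58 (limma adjusted p = 1.8e-04) and 0.48 (adjusted p = 0.0024), and the R-spondin receptor Lgr4 by 0.7 (adjusted p = 0.00311). Fzd1, a Wnt receptor, rose by 0.4 (adjusted p = 0.00106), and Rspo1 by 0.47 (adjusted p = 0.0311; called in 10 of 24 settings). At 1 week 3 rose and 1 fell, and 0 were called without replicate 1 of the 1 week control.

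Of 15 listed secreted inhibitors and Kremen receptors 3 were tested. Dkk3 read -4.87 and -4.65 on control at 1 week, -4.97 and -4.73 at 2 weeks and -4.61 and -4.32 at 6 weeks, and -2.93 and -3.33, -2.67 and -2.48, and -1.73 and -2.15 on CDAHFD. It rose by 2.06 ± 0.12 (limma adjusted p = 1.6e-07) with no overlap. Whether Dkk3 acted on Wnt signalling in these livers was not tested. Frzb, a secreted Frizzled-related protein, passed the background filter only through CDAHFD, so its levels are a description. It was not well above background on control arrays at 2 and 6 weeks, and was at least 4.81-fold and 7.57-fold higher on CDAHFD there. The limma adjusted p-values (5.0e-04 and 1.2e-04) belong to the fitted differences, 2.72 and 3.31, and support nothing. Kremen1, a membrane receptor of Dickkopf proteins, fell by 0.31 (adjusted p = 0.0336; called in 16 of 24 settings).

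Of 17 intracellular pathway genes tested of 18, 3 rose and 3 fell on average (median -0.14), against 35.6% and 25.7% of all genes. Wls, which carries Wnt ligands to the cell surface, rose by 1.27 ± 0.12 (limma adjusted p = 5.7e-06). Porcn, which acylates them, fell by 0.66 (adjusted p = 6.2e-04), as did Apc, part of the destruction complex, by 0.76 (adjusted p = 7.5e-04). Ctnnb1, beta-catenin, rose by 0.18 ± 0.07 (adjusted p = 0.00872), a call lost under median centring (adjusted p = 0.123), with the percentile over all probes (adjusted p = 0.857) and against the later control arrays (adjusted p = 0.168). Axin1 was -0.22 (adjusted p = 0.189).

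**Figure D4:**
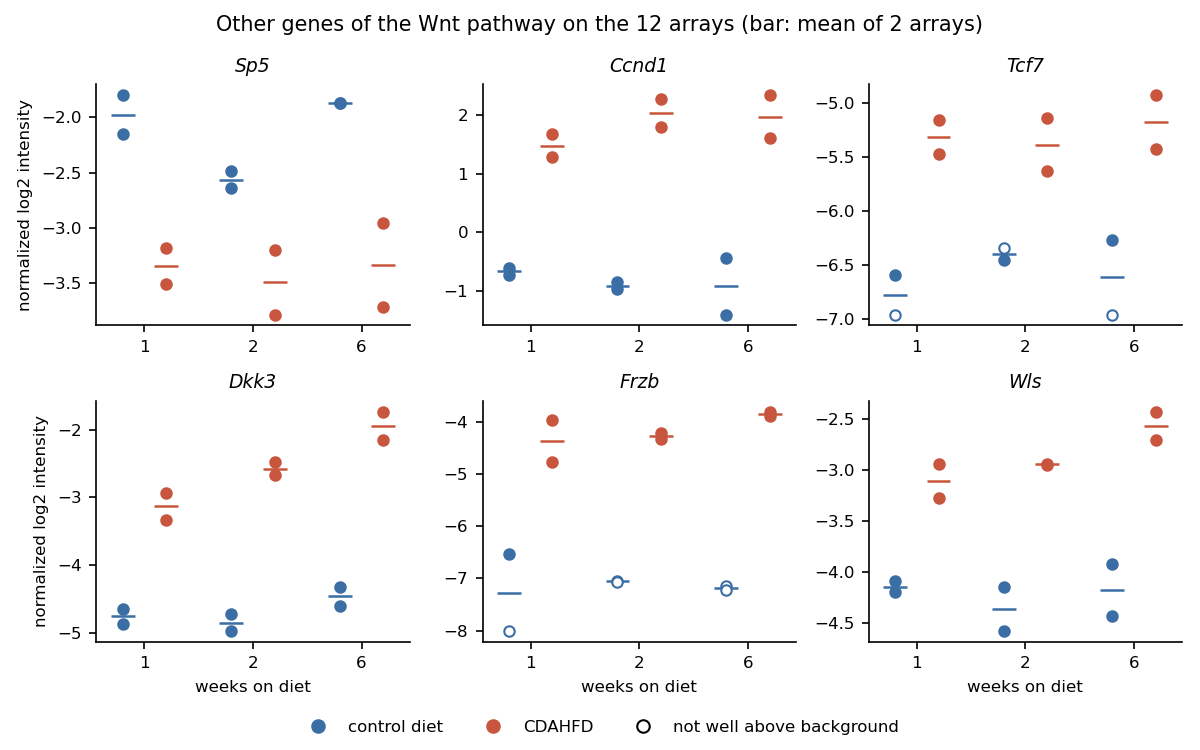
Normalized log2 intensity (y axis, its own range in each panel) of Sp5, Ccnd1, Tcf7, Dkk3, Frzb and Wls after 1, 2 and 6 weeks (x axis); points are arrays, bars are means of 2, and open points were not well above background. Sp5 lies lower on every CDAHFD array and the other 5 genes higher.

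Of 9 stellate cell and fibroblast markers 7 rose and 0 fell at each week, with mean levels of -3.32 to -2.72 on control and -1.78 to -1.35 on CDAHFD arrays. At 1, 2 and 6 weeks 25.9%, 22.9% and 24.5% of all genes rose and 15.0%, 14.9% and 16.2% fell. Of 8 macrophage markers 5, 6 and 6 rose and 0 fell at 1, 2 and 6 weeks, with mean levels of -1.98 to -1.18 and 0.3 to 0.93. With the dim blocks masked, 6 rose and 1 fell at 6 weeks. Timd4, a macrophage marker read by a probe in the dim corner, was 2.6 ± 0.89 at 1 week and -2.24 ± 0.89 at 6 weeks. Of 5 T and NK cell markers tested of 6, 3, 3 and 4 rose, with mean levels of -5.39 to -5.02 and -3.55 to -2.71. Cd3e, which signals for T cell receptors, fell at 1 week (-1.02, limma adjusted p = 0.00651) and on average (-0.39, adjusted p = 0.0433), and neither call held without replicate 1 of the 1 week control. Klrd1 and Il7r, among those that rose, passed the background filter only through CDAHFD, and the mean levels include them. Of the other 3 T and NK cell markers, 1, 1 and 2 rose and 1, 0 and 0 fell at 1, 2 and 6 weeks. Their medians were -0.27, 0.17 and 0.43. Of 5 bile duct markers 0, 0 and 1 rose by limma, with mean levels of -5.77 to -5.2 and -5.63 to -4.77. Their part in the Ccnd1, Tcf7, Dkk3, Frzb and Wls values was not tested. Nor was it for Wif1, which was not called at 6 weeks.

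The genes whose levels ran most like each member over the 12 arrays, by Pearson's r, were picked among genes above background on all arrays. The 12 arrays share diet groups and slides, so r is a description. Oat ran with Egln3 (r = 0.952), Mtfmt (0.945) and Crem (0.922), and Tbx3 with Gfm1 (0.939), Cps1 (0.909) and Pdk1 (0.908). Lect2 ran with Stfa2 (0.965) and Mxra7 (0.963), and Rhbg with Themis (0.937), Myl12b (0.934) and Gpx4 (0.932). Glul ran with Anapc11 (0.933), Cuta (0.923) and Sgta (0.895), and Axin2 with Gm29968 (0.922), Acvr2a (0.914) and Epop (0.913). Lgr5 ran with Polr3c (0.894), Smad3 (0.893) and Zfp85 (0.872), Wnt2 with Smurf2 (0.927), Osbpl9 (0.87) and Gm14440 (0.869), and Rspo3 with Klhl20 (0.933), Zdhhc21 (0.929) and Fhod1 (0.927). None of these genes was a member.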

How the data were processed

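Total RNA of mouse liver (150 ng, Cy3) was read on 12 one-colour Agilent arrays, 2 per diet and week. The deposited scanner files hold processed intensity values, made by the authors with Feature Extraction 11.5.1.1 per the file headers (10.7 per the submitters' processing notes). The array design names mm9, so no array coordinates are printed.

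From the deposited intensities, log2 values were averaged per probe without outlier and control spots and set against each array's 75th percentile over probes well above background on all arrays. A gene was read by its brightest probe, kept where both arrays of at least 1 group gave a signal well above background, and tested with limma 3.58.1 in R 4.3.3 (lmFit, eBayes with trend and robust, 6 group means, 6 residual degrees of freedom, Benjamini-Hochberg). The script was tested on simulated data. Precision is limited by 2 arrays per group.

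The genes and lists were chosen with earlier results of these data known. Named genes were all 10 members, the first 3 tested of each other list with up to 3 more by adjusted p, and the 3 genes most like each member, of which 1 for Lect2 is not reported here. Alternatives changed scaling, background correction (normexp on the median signals, offset 50, as no mean signal column was used here), filter, probe rule, variance model, slide, replicate block and arrays. Array weights, later controls for 1 week and masked dim blocks were also tried. Counts of the lists without the dim array, counts without genes that passed the filter only through CDAHFD, and the Wif1 bound without each array were added after seeing the data.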

Additional observations from a re-analysis of the deposited data

Results flagged for a closer look

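The diet difference of Rhbg changed between weeks (limma adjusted p = 0.00931): it was -0.55 at 1 week and 0.95 and 1.22 at 2 and 6 weeks. Among the marker lists, Trem2, a receptor of macrophages, had a diet difference that changed between weeks (limma adjusted p = 0.00826).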

How the results depend on the processing

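Members called, Wif1 included, ranged, without 1 array at a time, from 2 to 5 at 1 week, 2 to 5 at 2 weeks, 2 to 5 at 6 weeks, 0 to 1 for the change between weeks, 0 to 2 between control weeks and 0 to 2 between CDAHFD weeks. Quantile normalization called 5 at 2 weeks, and normexp 3 at 6 weeks and 2 between CDAHFD weeks. Between control weeks 1 was called with median centring, the percentile over all probes, normexp, or probes above background on all arrays. For the average over weeks the main fit called 8 of 10 members and 61.3% of all genes, 8520 of 13898. Alternatives other than leaving out 1 array called 7 to 8 members and 7003 to 12242 genes. The number of genes tested changed with the filter.

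Where 1 array of a pair was left out, the lone array was assumed to vary like the other groups. Signs turned for genes whose adjusted p there was over 0.05. Without 1 array, Lgr5 and Wnt2 at 1 week ranged from -0.48 to 0.19 and -0.33 to 0.01, Glul and Wnt2 at 2 weeks from -0.25 to 0.06 and -0.55 to 0.24, Wif1 at 6 weeks from -1.62 to 0.75, and Sds on average from -0.51 to 2.93; the positive end was without replicate 1 of the week's control for the first 4 and replicate 2 for the last 2. With no filter, Lgr5 and Wnt2 were 0.11 and 0.09 at 1 week, Glul, Wnt2 and Rspo3 0.12, 0.05 and 0.06 at 2 weeks, and Axin1 0.01 on average. Later controls gave Rhbg 0.01 at 1 week and Sds -0.52 on average, and masked dim blocks gave Sds -0.5. Glul was 0.29 at 2 weeks and 0.15 on average with quantile normalization, and 0.17 and 0.02 with normexp. It was 0.02 at 2 weeks without CDAHFD_2w replicate 2. Wif1 with normexp was -0.05 at 2 weeks and -0.03 on average. Where the cause is not plain from the alternative, the cause was not tested.

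Over all genes, 5689 were called at 1 week and 3073 without CDAHFD_1w replicate 1. At 2 weeks 5258 were called, 3431 with normexp and 3391 without CDAHFD_2w replicate 2. At 6 weeks 5657 were called and 3769 with normexp. The change between weeks had 332, 163 without a trend, and 23 to 609 without 1 array. Control weeks had 1598, 735 with normexp and 391 to 2121 without 1 array, and CDAHFD weeks 430, 283 without a trend and 21 to 832. Higher genes were 63.3% of the 1 week calls, 45.6% with median centring, 36.1% with all probes and 33.3% with normexp.

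Replicate numbers did not pair the arrays (correlations of deviations -0.05, 0.18 and 0.11). The replicate block gave 4 members called at 6 weeks and 7 on average (Axin2 adjusted p = 0.0563, Lgr5 0.0591), and the same counts elsewhere. Signal near background limits Wif1 and the second Axin2 probe. Axin2 and Wnt2 were above background on all 12 arrays but read as low as -6.65 and -6.60, and some of their calls changed with normexp. The 2 arrays per group limit all values.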
